A study of Mus musculus with 8 samples.

Results

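Enzymes that make and recycle nucleotides were followed in regulatory T cells (Tregs) sorted from mouse spleen. The set comprised 37 genes, taken by symbol from a list of purine and pyrimidine synthesis and salvage enzymes, and all 37 were among the 21524 genes of the deposited table. They fell into a purine arm of 16 genes, a pyrimidine arm of 8 and a deoxynucleotide arm of 13. Membership rested on known enzyme function.

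Of the 8 libraries, 4 carried the treatment label IL-2 (libraries 41 to 44) and 4 the label control (libraries 45 to 48), each from total RNA of flow-sorted spleen Tregs. The series concerns an IL-2 mutein, given with CTLA-4 Ig to C57BL/6 mice that had received BALB/c hearts or kidneys. Whether these 8 libraries came from grafted animals, which form of IL-2 was given, whether either group had CTLA-4 Ig, and the strain, age and dose are not stated in the labels. Nothing in the labels states that each library is a separate animal, and the p-values then reflect only variation among libraries, which may be technical.

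Purines are assembled step by step on phosphoribosyl pyrophosphate (PRPP) to give IMP, which branches to AMP and GMP. The pyrimidine ring is built first and then joined to PRPP to give UMP, from which CTP is made. Ribonucleotide reductase converts ribonucleotides to the deoxynucleotides used for DNA, and salvage enzymes return free bases and nucleosides to the pool. Dividing lymphocytes draw heavily on new synthesis, which is why blockers of IMP dehydrogenase and of dihydroorotate dehydrogenase are used as immunosuppressants.

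Values are normalised reads recovered from the deposited variance-stabilised values, and differences are IL-2 minus control on the deposited log2 scale. That scale is compressed at low reads, so folds were taken as ratios of group means of normalised reads. Estimated depth was 4953545 to 6399417 reads per library. A difference was called when limma, fitted on 10822 genes, gave an adjusted p below 0.05. The Treg genes Foxp3 (1123 to 2235 normalised reads), Il2ra, Ctla4 and Ikzf2 were present in every library. Of 9 listed Treg and T cell genes, Il2ra, Lrrc32 and Tnfrsf18 were called higher with IL-2, and 5 were not past the threshold. Cd4 was called lower, with 2067 to 2927 normalised reads under IL-2 and 3851 to 4468 in the controls. Summed markers of B cells (100 to 212 normalised reads with IL-2, 382 to 496 in controls), of myeloid cells (836 to 1062 and 1631 to 1888) and of natural killer cells (0 to 34.9 and 66.1 to 164) were lower with IL-2. Of 7 B cell markers, 5, Ms4a1 among them, had at most 5.86 normalised reads in any library. Cd74, which made up most of the control sum, had 47.6 to 144 under IL-2 and 354 to 438 in the controls, whereas Cd79b overlapped (18.3 to 93.1 and 23.7 to 56.2). The natural killer sum came mostly from Eomes (0 to 26.9 with IL-2, 40.4 to 73.8 in controls) and Klrb1c (0 to 7.95 and 18.3 to 80.4). The other natural killer markers were Ncr1, with at most 9.99 in any library, and Klre1, at 0 in all 8 libraries. Most of the myeloid sum was Ctss, Itgam overlapped between groups (34.9 to 114 and 27.3 to 85.2), and Cd14, Clec9a and Siglech were at 0 in all 8 libraries. Their part in the differences below was not tested. Of 5 neutrophil markers, 4 had at most 1 normalised read in any library, while Ltf, the gene of lactoferrin, had 126 to 180 under IL-2 and 0 to 4 in the controls.

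More enzyme transcripts rose than fell with IL-2. Of the 37 genes, all of which were tested, 14 were called higher and 2 lower, where 11.0% and 9.31% of all tested genes were called in those directions. The IL-2 libraries lay wholly above the controls for 16 of the 37 (12.9% of all tested genes) and wholly below for 1 (10.9% of all tested genes). The rises were moderate, from 1.34-fold for Mthfd1l to 2.27-fold for Nme1. Over the 37 genes the median difference was 0.14, against -0.00384 over all tested genes. In bulk RNA, more transcript per cell and more cells of a dividing subset cannot be told apart.

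**Figure D1:**
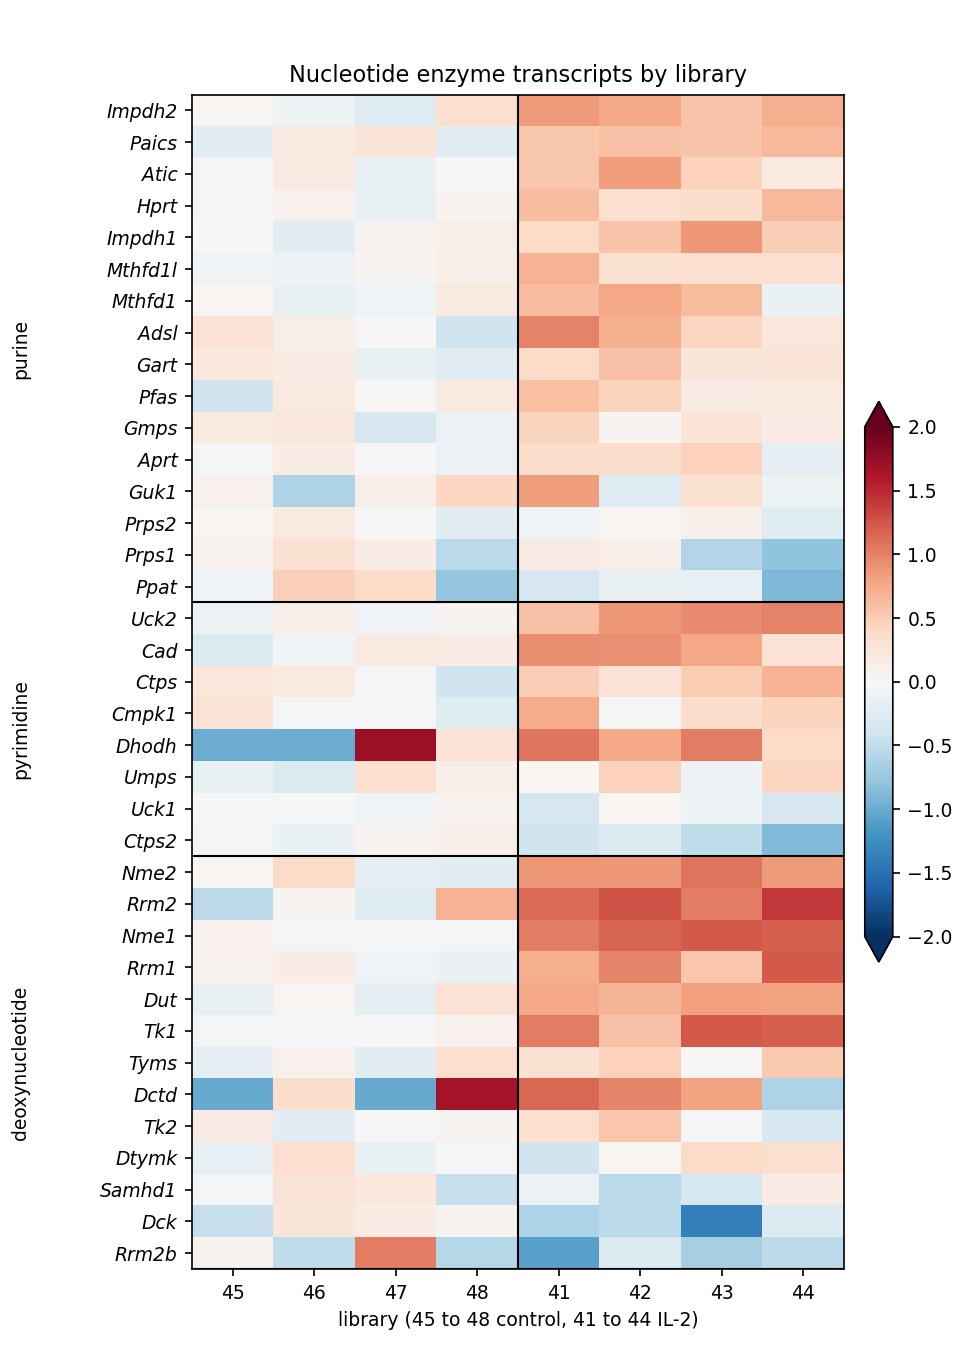
Each row is an enzyme transcript and each column a library, coloured by log2(normalised reads + 5) minus the mean of the 4 control libraries, with arms separated by black lines. The red block on the right holds most genes of all 3 arms, while Ctps2, Dck and Ppat are among the blue rows. Dhodh and Dctd, with at most 28 normalised reads, vary most among the controls.

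The purine arm had 6 genes called higher, 0 called lower and 10 not past the threshold, with a median difference of 0.19. The 6 were Paics, Atic, Impdh1, Impdh2, Hprt and Mthfd1l, which act in ring assembly, in the branch to GMP, in salvage and in one-carbon supply. Its summed normalised reads were 6239 to 7478 under IL-2 and 5084 to 5680 in the controls.

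The first step of ring assembly, the PRPP amidotransferase encoded by Ppat, had 221, 254, 249 and 149 normalised reads in IL-2 libraries 41 to 44 and 267, 391, 367 and 162 in control libraries 45 to 48. The groups overlapped, with library 44 and library 48 lowest in their groups (difference -0.15, 95% interval -0.36 to 0.06, limma adjusted p = 0.311). Prps1 and Prps2, which encode the synthetases that make PRPP, stood at 135 ± 45.9 against 162 ± 38.6 and 342 ± 35.1 against 354 ± 40.5 (SD, n = 4 each, limma adjusted p = 0.525 and 0.847). The steps that supply PRPP and commit it to purines were therefore not among the called genes.

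Steps further along the chain had higher means with IL-2. Paics, whose protein carries out 2 consecutive middle steps, had 677, 698, 691 and 728 normalised reads under IL-2 and 397, 529, 559 and 398 in the controls. Every IL-2 library exceeded every control, a 1.48-fold rise (difference 0.29 ± 0.06 SE, limma adjusted p = 0.00553). Atic, which closes the ring to IMP, had 733, 895, 689 and 577 against 491, 568, 451 and 500. Its groups did not overlap either (1.44-fold, difference 0.27 ± 0.07 SE, limma adjusted p = 0.019), but the call was lost without control library 47 (adjusted p = 0.0568).

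Among the other ring assembly enzymes, Gart, a protein with 3 activities in the pathway, stood at 582 ± 66.5 against 453 ± 68.1 (SD, n = 4 each, limma adjusted p = 0.0688), with its 4 IL-2 libraries above all controls. Adsl, adenylosuccinate lyase, which acts both in ring assembly and in the branch to AMP, stood at 265 ± 62.6 against 173 ± 33.6 (limma adjusted p = 0.0573). Pfas stood at 316 ± 46.1 against 248 ± 44.6 (limma adjusted p = 0.164). Gart passed without control library 45 (adjusted p = 0.0493) and with a stricter filter on low values (0.0484), and Adsl passed with that filter (0.0462), with array weights (0.0392) and without IL-2 library 44 (0.0281).

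The 2 IMP dehydrogenases, which commit IMP to guanine nucleotides and are the target of mycophenolate, both rose. Impdh2 had 627, 596, 516 and 578 normalised reads under IL-2 and 356, 323, 288 and 433 in the controls, a 1.65-fold rise (difference 0.34 ± 0.06 SE, limma adjusted p = 0.00212). Impdh1 had 305, 346, 425 and 326 against 231, 199, 244 and 254, a 1.51-fold rise (difference 0.23 ± 0.06 SE, limma adjusted p = 0.0146). Neither gene had an IL-2 library within the control range. Gmps, the next enzyme of the branch, stood at 668 ± 77.6 against 571 ± 102, and Guk1, the GMP kinase, at 83.5 ± 31.3 against 71.5 ± 20.7 (limma adjusted p = 0.268 and 0.708).

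Salvage of purine bases is carried by Hprt, for hypoxanthine and guanine, and Aprt, for adenine. Hprt had 722, 593, 600 and 735 normalised reads under IL-2 and 473, 495, 420 and 485 in the controls, with no overlap (1.41-fold, difference 0.25 ± 0.06 SE, limma adjusted p = 0.00829). Aprt stood at 161 ± 30.3 against 133 ± 10.5 (SD, n = 4 each, limma adjusted p = 0.385). Hprt is often used as a reference gene for normalisation, and here it was among the genes called higher.

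One-carbon units for the purine ring come from 10-formyltetrahydrofolate, made by Mthfd1 in the cytosol and by a chain ending in Mthfd1l in mitochondria. Mthfd1l had 843, 644, 651 and 654 normalised reads under IL-2 and 490, 486, 544 and 570 in the controls, 1.34-fold higher (limma adjusted p = 0.0258). The call was lost without IL-2 library 41, the highest library (adjusted p = 0.065), and without control library 45 (0.0667) or 46 (0.0708). Mthfd1 had 463, 518, 467 and 275 against 308, 271, 288 and 341. Its library 44 lay inside the control range, and the gene, not called with all libraries (adjusted p = 0.0841), was called without that library (0.00368).

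The pyrimidine arm held 2 genes called higher, 1 lower and 5 not past the threshold, with a median difference of 0.12. Cad, the 3-activity protein that opens pyrimidine synthesis, had 607, 603, 550 and 390 normalised reads under IL-2 and 262, 308, 361 and 352 in the controls. All 4 IL-2 libraries were above the controls, library 44 only slightly (1.68-fold, difference 0.33 ± 0.07 SE, limma adjusted p = 0.00714). Umps, which finishes UMP, stood at 176 ± 34.4 against 151 ± 29.7 (limma adjusted p = 0.517). Dhodh, the mitochondrial step between them, had 16, 12, 15 and 8 normalised reads under IL-2 and 0, 0, 28 and 7 in the controls. The controls spread around the IL-2 values, and the difference did not pass (0.11, 95% interval -0.06 to 0.28, limma adjusted p = 0.374).

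The clearest rise in the pyrimidine arm was that of Uck2, in uridine salvage. Uck2, a uridine-cytidine kinase, had 532, 648, 681 and 704 normalised reads under IL-2 and 328, 382, 334 and 364 in the controls, 1.82-fold higher with no overlap (difference 0.41 ± 0.06 SE, limma adjusted p = 3.80e-04). Its relative Uck1 stood at 137 ± 18.4 against 156 ± 6.92 (difference -0.05, 95% interval -0.16 to 0.05, limma adjusted p = 0.509). Cmpk1, which phosphorylates UMP and CMP, stood at 234 ± 51.8 against 177 ± 26.9 (limma adjusted p = 0.183).

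CTP is made from UTP by 2 synthases. Ctps2 fell, with 642, 705, 595 and 456 normalised reads under IL-2 and 834, 773, 886 and 908 in the controls, every IL-2 library below every control (1.42-fold lower, difference -0.28 ± 0.07 SE, limma adjusted p = 0.0119). Ctps, the synthase that proliferating T cells are known to need, had 155, 134, 157 and 180 against 128, 126, 108 and 81. Those groups did not overlap, though the difference of 0.14 did not pass (95% interval 0.02 to 0.26 before adjustment, limma adjusted p = 0.0989). Per kb of exon, Ctps2 stood at 127 ± 22.4 normalised reads under IL-2 and 180 ± 12.8 in controls, above Ctps at 47.3 ± 5.64 and 33.4 ± 6.51.

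**Figure D2:**
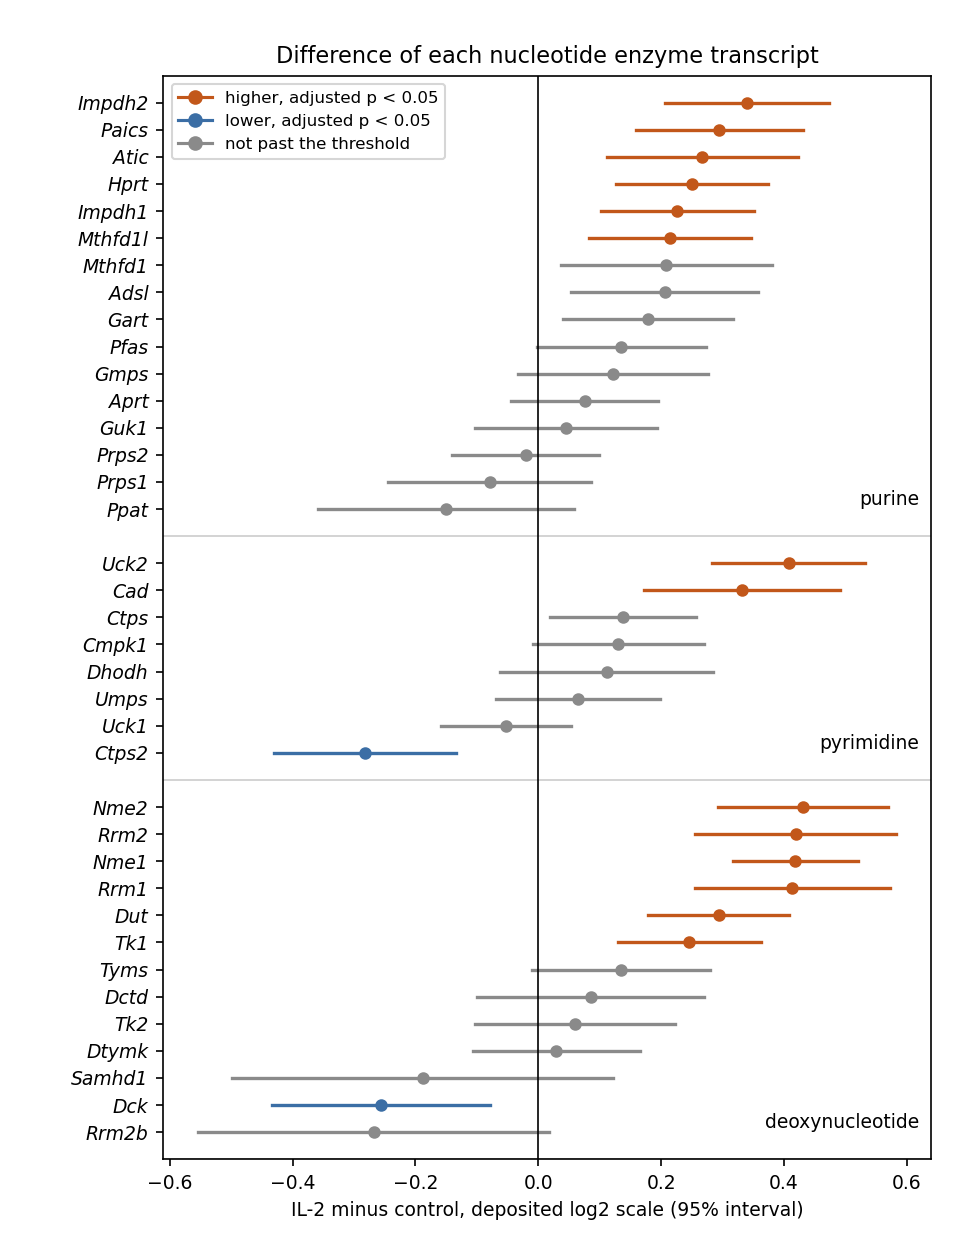
Points are IL-2 minus control differences on the deposited log2 scale for each enzyme transcript, with 95% intervals from limma, ordered by size within each arm. The genes called higher (orange, 14) lie between 0.21 and 0.43, and the 2 called lower (blue) are Ctps2 and Dck.

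The deoxynucleotide arm had 6 genes called higher, 1 lower and 6 not past the threshold, and it held the 4 largest differences of the whole set. These were those of Nme2, Rrm2, Nme1 and Rrm1. The kinases of Nme1 and Nme2 serve all nucleotides and were counted in this arm, so the ranking is not particular to deoxynucleotide enzymes. The median difference of the arm was 0.14 (0.19 without Samhd1). Both subunits of the S-phase ribonucleotide reductase rose. The large subunit gene Rrm1 had 551, 662, 491 and 787 normalised reads under IL-2 and 348, 370, 315 and 301 in the controls, 1.87-fold higher (difference 0.41 ± 0.07 SE, limma adjusted p = 0.00187). The small subunit gene Rrm2 had 322, 354, 297 and 389 against 99, 150, 121 and 236, 2.25-fold higher (difference 0.42 ± 0.08 SE, limma adjusted p = 0.00206). Neither overlapped between groups, and control library 48 was the highest control for Rrm2.

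Rrm2b, the p53-inducible small subunit that works outside S phase, went the other way in its means. It had 162, 283, 218 and 239 normalised reads under IL-2 and 364, 243, 708 and 232 in the controls. The control spread was wide, with library 47 at the top, and the difference did not pass (-0.27, 95% interval -0.55 to 0.02, limma adjusted p = 0.181).

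Thymidine nucleotides arise from dUMP through Tyms or by salvage through thymidine kinases. Tk1, the cytosolic kinase known from S phase, had 131, 96, 152 and 148 normalised reads under IL-2 and 60, 60, 62 and 66 in the controls, 2.13-fold higher without overlap (difference 0.25 ± 0.05 SE, limma adjusted p = 0.00615). Tk2, the mitochondrial kinase, stood at 336 ± 89.1 against 299 ± 34.4 (SD, n = 4 each, limma adjusted p = 0.637). Tyms stood at 361 ± 54.2 against 287 ± 55.7 (limma adjusted p = 0.185), and Dtymk, the thymidylate kinase, at 152 ± 36.0 against 140 ± 24.9 (limma adjusted p = 0.799).

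Dut, which clears dUTP and thereby supplies dUMP, had 357, 339, 373 and 369 normalised reads under IL-2 and 188, 215, 183 and 257 in the controls, 1.70-fold higher (difference 0.29 ± 0.05 SE, limma adjusted p = 0.00206). The groups were apart and the IL-2 libraries close together. Dctd, dCMP deaminase, another source of dUMP, had 17, 15, 12 and 2 normalised reads under IL-2 and 0, 8, 0 and 27 in the controls. Its groups overlapped, and the difference did not pass (0.09, 95% interval -0.10 to 0.27, limma adjusted p = 0.541).

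Dck, deoxycytidine kinase, the main salvage kinase for several deoxynucleosides in lymphocytes, was the arm's 1 called fall. It had 208, 221, 123 and 268 normalised reads under IL-2 and 233, 382, 359 and 341 in the controls. The groups overlapped at IL-2 library 44 and control library 45, and the call was near the threshold (1.61-fold lower, difference -0.26 ± 0.08 SE, limma adjusted p = 0.0439). It was lost when any of libraries 41, 42, 43, 46, 47 or 48 was left out (adjusted p = 0.0638 to 0.114), without a filter (0.0614) and on log2 reads (0.0523).

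The nucleoside diphosphate kinases, which make the triphosphates of all nucleotides, gave the most significant rise of the set. Nme1 had 321, 354, 371 and 363 normalised reads under IL-2 and 164, 152, 151 and 153 in the controls, 2.27-fold higher (difference 0.42 ± 0.05 SE, limma adjusted p = 7.31e-05). Nme2 had 617, 614, 705 and 609 against 341, 437, 293 and 284, 1.88-fold higher (difference 0.43 ± 0.06 SE, limma adjusted p = 5.50e-04). The 8 libraries were fully separated for both genes. The coding sequences of the pair are 80.3% identical with a longest shared run of 29 bases, and a readthrough gene, Gm20390, covers both (49.6 to 182 normalised reads with IL-2, 0 to 96.9 in controls), so the division of reads among the 3 is uncertain.

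Samhd1, which breaks down deoxynucleoside triphosphates, was the most abundant transcript per kb of exon in the set, at 593 ± 122 normalised reads per kb under IL-2 and 689 ± 144 in the controls. It had 5722, 4283, 4857 and 6848 normalised reads under IL-2 and 6114, 7431, 7166 and 4518 in the controls. Both groups covered nearly the same range, and the difference did not pass (-0.19, 95% interval -0.50 to 0.12, limma adjusted p = 0.407). Per kb, Hprt (514 ± 59.3 and 363 ± 25.9) and Nme2 (543 ± 39.1 and 289 ± 59.9) followed it, and Dctd and Dhodh were lowest, each below 4.

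**Figure D3:**
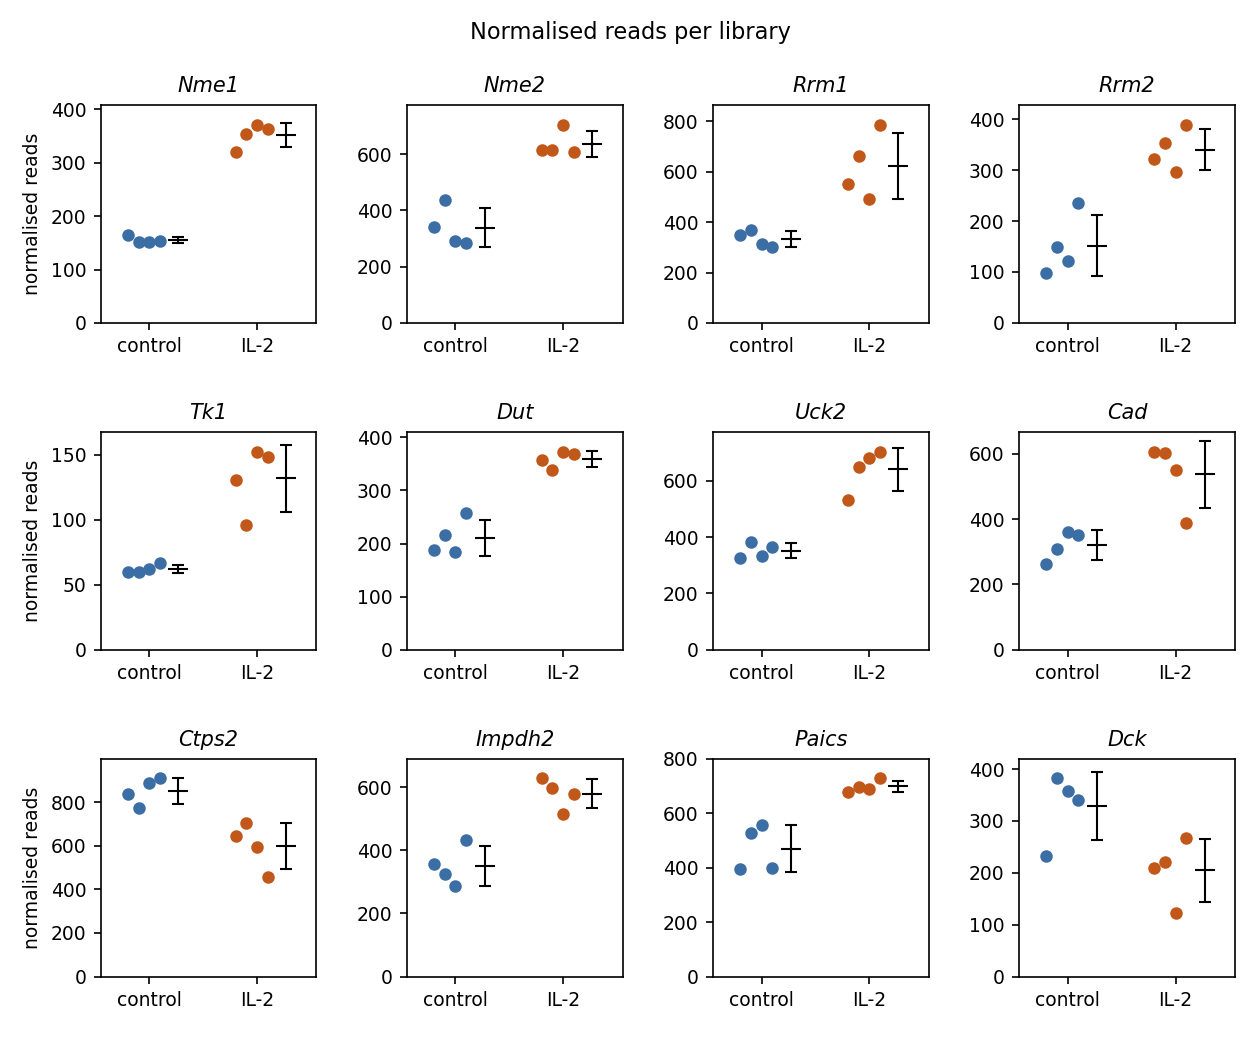
Points are normalised reads in single libraries for 12 enzyme transcripts, control in blue and IL-2 in orange, with the mean and SD (n = 4) beside each group. Of the 12, Dck alone has an IL-2 library inside the control range, and Ctps2 is the 1 gene whose IL-2 libraries all lie below the controls.

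Related enzymes were compared within libraries by the log2 ratio of their normalised reads plus 5, for 7 pairs, with two-sided exact permutation tests. For Uck2 over Uck1 the ratio was 2.18 ± 0.21 under IL-2 and 1.15 ± 0.09 in controls. For Ctps over Ctps2 it was -1.89 ± 0.43 against -2.90 ± 0.38, and for Rrm2 over Rrm2b 0.60 ± 0.29 against -1.25 ± 1.13 (SD, n = 4 each). In these 3 pairs every IL-2 library exceeded every control, which gives the smallest exact p of 0.0286, or 0.0667 adjusted over the 7 pairs, so none passed the adjustment. The remaining ratios overlapped between groups. Tk1 over Tk2 differed by 0.88 (exact p = 0.0857), Nme1 over Nme2 by 0.24 (exact p = 0.143), Impdh2 over Impdh1 by 0.15 and Prps1 over Prps2 by -0.23 (exact p = 0.371 each). The small ones depended on single libraries: with each left out in turn, Nme1 over Nme2 ranged from 0.10 to 0.31, Impdh2 over Impdh1 from 0.04 to 0.30 and Prps1 over Prps2 from -0.39 to -0.08.

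**Figure D4:**
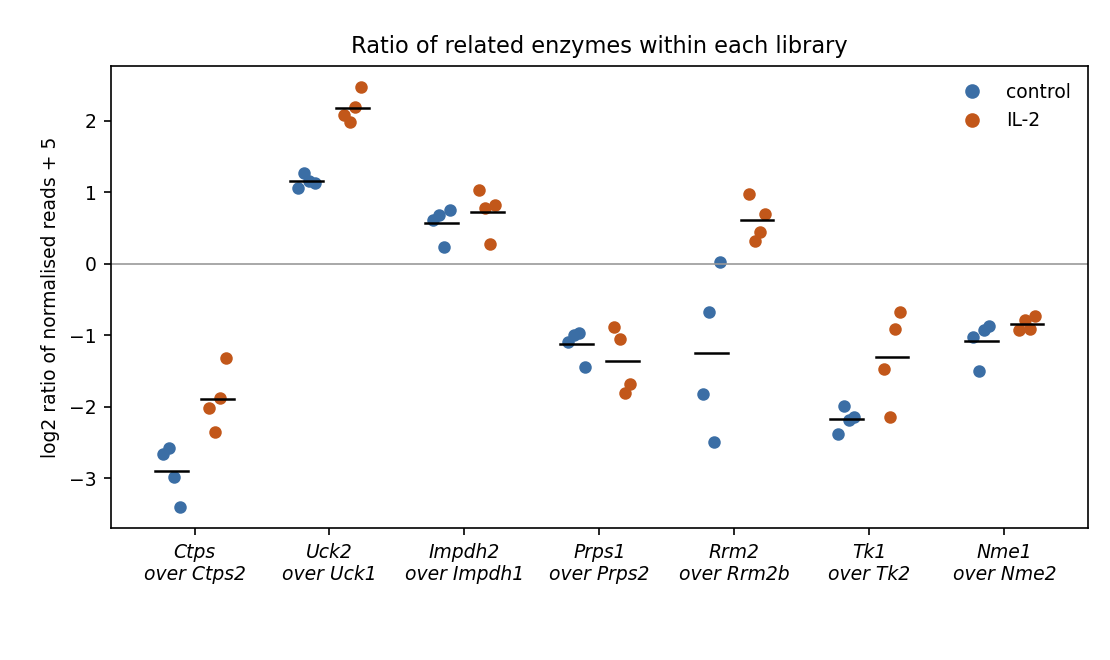
Points are log2 ratios of normalised reads plus 5 in single libraries for 7 pairs of related enzymes, control in blue and IL-2 in orange, with black lines at the group means. The IL-2 points lie above all control points for Ctps over Ctps2, Uck2 over Uck1 and Rrm2 over Rrm2b, and overlap them in the other 4 pairs.

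Paics and Ppat, next to each other in the pathway, are also neighbours in the genome, on opposite strands with their 5′ ends overlapping by 272 bases in the GENCODE M21 annotation. The log2 ratio of Paics over Ppat was 1.59, 1.44, 1.45 and 2.26 under IL-2 and 0.56, 0.43, 0.60 and 1.27 in controls. All IL-2 ratios were above all control ratios. This pair was picked after its values were seen, so no test is given, and reads from the overlap could be placed with either gene if strand was not used in the counting.

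The promoters of the 37 genes were searched for short motifs on both strands. RefSeq promoter windows (GRCm38.p6, 250 bases before to 50 after a start site) matched 34 of the 37 genes by symbol. CACGTG, the E-box bound by Myc and related factors, was present in 6 of the 34 (17.6%). It was present in 8.09% of 27025 genes with a promoter window, which include genes not expressed here, so the 2 shares are not of like sets. Those 6 included Paics, Atic, Impdh2 and Nme1, 4 of the 14 genes called higher, and Tyms and Dtymk, which were not called. The windows around each E-box are shown to place it, with the E-box in capitals, reading 5′ to 3′ on the strand of the gene.
Atic, chr1:71557137-71557166, plus strand, 7 bases before the start site: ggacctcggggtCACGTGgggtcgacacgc
Paics, chr5:76951087-76951116, plus strand, 203 bases before: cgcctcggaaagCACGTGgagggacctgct
Impdh2, chr9:108560314-108560343, plus strand, 110 bases before: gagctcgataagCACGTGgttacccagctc
Nme1, chr11:93968273-93968302, minus strand, 18 bases before: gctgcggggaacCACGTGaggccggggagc
Nme1 at a second start site, chr11:93968037-93968066, minus strand, 29 bases before: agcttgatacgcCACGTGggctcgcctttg
Tyms, chr5:30073669-30073698, minus strand, 61 bases before: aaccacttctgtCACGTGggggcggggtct
Dtymk, chr1:93802065-93802094, minus strand, 148 bases before: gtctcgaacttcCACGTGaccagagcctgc

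Given the gene overlap above, the Paics E-box would lie within Ppat, whose transcript was not called. Whether it falls in an exon or an intron of Ppat was not determined. E2F motifs (TTTCCCGC, TTTCGCGC, TTTGCCGC or TTTGGCGC) were found in 2 of the 34, Ppat and Prps2, neither called, and in 2.60% of all genes with a window. The STAT motif TTCNNNGAA was found in 3 (8.82%, against 9.55%), namely Paics, Adsl and Samhd1, and CCAAT in 13 (38.2%, against 41.1%). A match marks these letters only and does not show that a factor was bound.

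Transcripts of Myc, of E2F factors and of related regulators were listed beside the enzymes. Their part in the enzyme differences was not tested. Of 16 listed regulators, 6 were called higher, 2 lower and 8 not past the threshold. Over all tested genes, 11.0% were called higher and 9.31% lower. Myc had 692, 1020, 1079 and 895 normalised reads under IL-2 and 350, 432, 297 and 390 in the controls, 2.51-fold higher (limma adjusted p = 1.24e-04). E2f1, E2f2, E2f3, E2f7 and E2f8 rose 2.51-fold, 1.53-fold, 1.85-fold, 5.42-fold and 2.37-fold. E2f4, E2f5 and E2f6 were not past the threshold. E2f5 had the lower mean under IL-2, at 29.8 ± 18.6 against 59.5 ± 17.0 (limma adjusted p = 0.115). The pocket protein genes Rb1 and Rbl2, whose products restrain E2F factors, fell 1.75-fold and 1.55-fold (limma adjusted p = 1.45e-04 and 2.89e-04). Their relative Rbl1 was not called, with the higher mean under IL-2, at 571 ± 68.8 against 492 ± 62.4 (limma adjusted p = 0.272). Atf4, a regulator of one-carbon genes, stood at 465 ± 121 against 446 ± 50.1 (SD, n = 4 each, limma adjusted p = 0.911).

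Replication genes moved with the enzymes. Of 19 listed genes of DNA replication, 16 were called higher and 0 lower (11.0% and 9.31% of all tested genes). Their median difference was 0.30, and their summed normalised reads were 9581 to 10714 under IL-2 and 5255 to 5928 in the controls. Of 12 mitotic genes, 9 were called higher and 0 lower, beside those same shares over all tested genes. Their sums were 8971, 9452, 9575 and 20403 in IL-2 libraries 41 to 44 and 4141 to 6272 in controls. Library 44 held about the same replication sum as the other IL-2 libraries but the highest mitotic sum. It also had the most Rrm1 and Rrm2 reads and, among IL-2 libraries, the fewest of Cad, Ctps2, Mthfd1, Atic and Ppat. The part of cell division in the enzyme differences was not tested. Leaving library 44 out kept 6 deoxynucleotide and 2 pyrimidine genes called higher and raised the purine count from 6 to 8.

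Beyond the 37 genes, 47 symbols of other nucleotide enzymes and nucleoside transporters were listed, of which 45 were in the table and 34 were tested. Among those 34, 8 were called higher and 0 lower, where 11.0% and 9.31% of all tested genes were called in those directions. Of the 8, 4 (Gda, Xdh, Adssl1 and Ampd1) had control means below 10 normalised reads and passed the filter through their IL-2 libraries, so the count favours rises, and it is 4 without them. Fitted with no filter, limma gave these genes adjusted p-values of 6.31e-06, 0.0189, 0.00624 and 0.0319. The largest difference was that of Gda, guanine deaminase, which removes guanine from the salvage pool by converting it to xanthine. It had 252, 351, 216 and 358 normalised reads under IL-2 and 12, 0, 0 and 6 in the controls (difference 1.07 ± 0.08 SE, limma adjusted p = 3.03e-06). Xdh, which oxidises xanthine to urate, had 43, 28, 26 and 122 against 5, 11, 0 and 8 (limma adjusted p = 0.0166), a call lost without control library 47 (0.051). Both act in purine breakdown, the reverse direction from most of the genes above.

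In the branch from IMP to AMP and back, the genes called were Adssl1 and Ampd1, each weakly expressed beside its relatives. Both passed the filter through their IL-2 libraries, so the filter itself favoured low control reads with a rise. Adssl1, an adenylosuccinate synthase, had 29, 55, 38 and 72 normalised reads under IL-2 and 14, 11, 1 and 7 in the controls (limma adjusted p = 0.00638), while its relative Adss stood at 805 ± 73.4 against 856 ± 62.1 (SD, n = 4 each, adjusted p = 0.575). Ampd1, an AMP deaminase, had 27, 25, 25 and 24 against 5, 3, 13 and 12 (adjusted p = 0.048). That call was lost when any single library was left out (adjusted p = 0.0503 to 0.123). It was also lost with median centring (limma adjusted p = 0.0634), robust limma (0.0517) and array weights (0.0514). The other AMP deaminase genes were more abundant and not called, Ampd2 at 152 ± 39.3 against 141 ± 27.0 and Ampd3 at 184 ± 67.7 against 152 ± 40.6 (SD, n = 4 each, limma adjusted p = 0.804 and 0.575).

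Enzymes of the mitochondrial one-carbon chain, which feeds purine synthesis, rose as well. Mthfd2 had 410 ± 57.4 normalised reads under IL-2 and 278 ± 20.9 in the controls, 1.47-fold higher (SD, n = 4 each, limma adjusted p = 0.0125). Shmt2, which starts that chain, was 1.63-fold higher (adjusted p = 0.0281) and was not called when library 41, 42, 43, 45 or 47 was left out (0.0714 to 0.0803). The nucleotidase gene Nt5c was 1.33-fold higher (limma adjusted p = 0.00746).

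**Figure D5:**
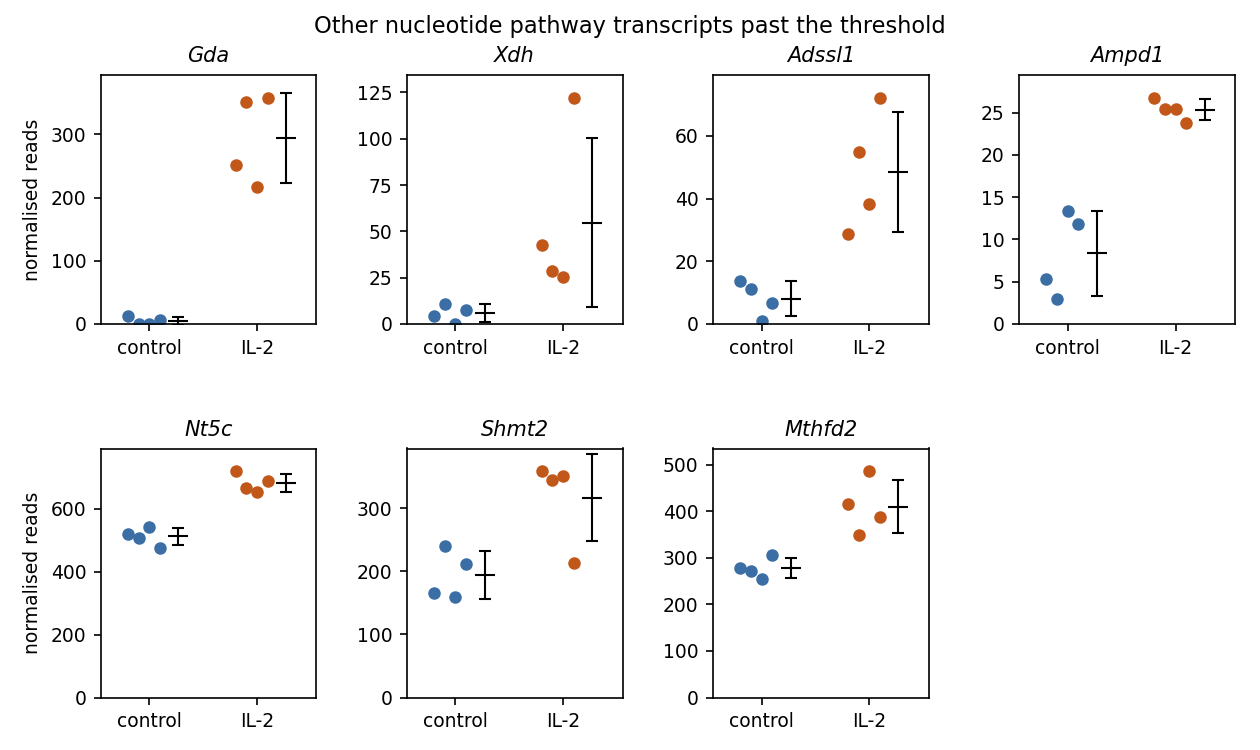
Points are normalised reads in single libraries for 7 of the 8 other nucleotide pathway transcripts called higher, control in blue and IL-2 in orange, with the mean and SD (n = 4). Gda goes from 0 to 12 in controls to 216 to 358 with IL-2, and the IL-2 points of Xdh spread up to 122 in library 44.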

How the data were processed

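Per the labels' protocols, RNA of sorted Tregs went into stranded total RNA libraries. The authors deposited variance-stabilised values on a log2 scale. The submitters' processing notes name Salmon, DESeq2 and GRCm39 without order or settings, and annotation and filters are not given there or in the labels. Each library is 1 column of the table, matched by library number.

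Normalised reads were recovered by inverting the parametric variance-stabilising formula, whose scale is set by the lowest value (8.69, standing for 0 reads). Of 40 common low values checked, 40 were whole multiples of 1 read within 0.001. In each library, 1 read was taken as the lowest of the values checked, so that value passed by construction. The values 1 unit above the lowest stand for 206 normalised reads. As most values are estimates, no count test was run.

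The deposited values were fitted with limma 3.58.1 (R 4.3.3, lmFit and eBayes with trend, no covariates) for genes with a mean of at least 10 normalised reads over the 8 libraries, 10822 in all, with Benjamini-Hochberg adjustment over all of them. An earlier treatment of these data kept genes at least 1 above the lowest value in 4 libraries, which drops low enzymes and can keep others through 1 group only, so it served here as an alternative. Other alternatives were no filter, log2 of normalised reads plus 5, quantile normalization, median centring, limma without trend, robust or with array weights, and each library left out. The fit was tested on simulated data. Paralog ratios used exact permutation tests (scipy 1.17.1), and coding sequences were aligned with Biopython 1.88. Exon lengths and coding sequences came from GENCODE M21, of an earlier build than the one named, and promoters from RefSeq. Recovered reads carry counting error, larger at low reads, and estimation error that is not known.

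The enzymes, lists and tests were chosen with earlier results of these data known. All 37 enzymes are reported, and of each other pathway list up to 6 genes with the smallest p were to be named. Ampd1, Shmt2, E2f3, E2f4, E2f5, E2f6, E2f8, Rbl1, Atf4, Adss, Ampd2, Ampd3, the cell type markers and Gm20390 were named after their values were seen. Of the listed genes outside the 37, 2 are not reported here by name.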

Additional observations from a re-analysis of the deposited data

Results flagged for a closer look

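Among 122 groups of 4 libraries checked for single libraries far from the rest, 6 were marked, where about 1 in 20 is marked by chance. In the IL-2 group, library 41 was high for Mthfd1l, with 843 normalised reads against 644 to 654 in the other 3, and library 43 was high for Nme2, with 705 against 609 to 617. In the control group, library 45 was high for Nme1, with 164 against 151 to 153, a small step in a tight group. In IL-2 library 44, the mitotic genes Top2a (4162 against 2013 to 2213), Mki67 (13044 against 5332 to 6142) and Kif11 (1090 against 443 to 521) stood above the other 3 libraries.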

How the results depend on the processing

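Of the 16 enzymes called, 13 were called in every alternative that tested them, and the exceptions were Atic, Mthfd1l and Dck. Over 582 refits of single enzymes, 559 kept their direction and side of the threshold, 12 lost the call, 6 gained it and 5 changed sign. Without a filter and on log2 reads, 0 deoxynucleotide genes were called lower in place of 1, and leaving out single libraries gave 0 to 1. Leaving out single libraries gave 5 to 8 purine genes called higher, 6 deoxynucleotide and 2 pyrimidine genes in each case, and 975 to 1093 higher and 802 to 896 lower over all genes. The changes of sign were all in uncalled genes near 0 when single libraries were left out: Guk1 without IL-2 library 41 (-0.0067, range over all left-out libraries up to 0.0783), Prps2 without IL-2 library 44 (0.0068) or control library 46 (0.0059, range down to -0.0507), Dtymk without IL-2 library 43 (-3.86e-04, up to 0.0753) and Tk2 without IL-2 library 42 (-1.76e-04, up to 0.1196). The cause of these shifts was not tested, beyond the smaller number of libraries. With the filter of 1 above the lowest value, 27 of the 37 enzymes were tested. With pseudocounts of 1 and 20, 0 of the 7 paralog ratios passed after adjustment, as with 5, which says little about stability because the smallest exact p is 0.0286. With 1 library left out that test cannot pass. No paired analysis was possible because the labels give every library a replicate number of its own. Counting error is largest for genes with few reads, such as Dhodh, Dctd and Ampd1.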
